A study of Drosophila melanogaster with 8 samples.

Results

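In Drosophila S2R+ cells, 128 of 15473 array transcripts were raised at least 2-fold in each of 4 replicate pairs when the transcription factor M1BP was depleted by RNA interference. They were chosen by their measured values: a mean log2 level of at least 7 over the 4 M1BP RNAi arrays, and a log2 difference (M1BP RNAi minus LacZ RNAi) of at least 1 in every pair of same-numbered arrays. Of the 128, 15 had a LacZ RNAi mean under 7, in the dim range of these arrays, and 113 were at 7 or above in control cells. The 128 were 0.827% of all transcripts and 1.50% of the 8532 with an M1BP RNAi mean of at least 7.

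S2R+ is an adherent, haemocyte-like derivative of the embryonic Schneider 2 line. All 8 cultures received 30 µg of double-stranded RNA and were grown for a further 5 days, so the 4 control cultures also carried an RNAi trigger, against the bacterial gene LacZ. The other 4 received double-stranded RNA against M1BP. Total RNA from each culture was labelled with Cy3 and read on 1 array. The design calls the cultures biological replicates but does not say what a shared replicate number stands for. The cells are a single line and the measurement is on bulk RNA, so more RNA per cell and more cells with a transcript cannot be told apart.

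M1BP is a zinc-finger protein that binds Motif 1, a core promoter element found mainly at genes with housekeeping roles. In flies it is known for holding RNA polymerase II in a paused state just downstream of the start site. RNA interference lowers the target protein by destroying its messenger RNA, and transcript levels after several days include responses of genes that the factor does not bind. Which of the transcripts below have M1BP at their promoters was not analysed here.

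The array is indexed by FlyBase transcript identifier, and the gene table used here tied 17 of the 15473 identifiers to a single gene and 27 to several genes. Among the 128 raised transcripts 1 was tied to a gene, His4r, and 127 were not. For 16 of the 20 gene and marker lists drawn up for this study (heat shock, immune, apoptosis, ecdysone, ribosomal protein and other lists) no gene was tied to an identifier, and no list had more than 2. The only list with a raised transcript was that of histone genes outside the replication-dependent cluster, where His4r was 1 of 5 genes and the only one tied. Among the haemocyte markers LanA, a laminin alpha chain, was the only one tied, at 13.3 ± 0.19 (SD, n = 4) in LacZ RNAi cells and 13.8 ± 0.18 (SD, n = 4) in M1BP RNAi cells on the log2 scale. No neuron, muscle, germline, epithelial or fat body marker was tied. The identifier of M1BP itself was not tied, so its depletion was not checked here. Identifiers are therefore used below only to tell transcripts apart. The rule for naming gave His4r and the largest rise in each level class, and the other identifiers were picked after their values were seen.

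His4r encodes histone H4 from a gene outside the replication-dependent histone cluster and is transcribed independently of DNA replication. Its log2 levels in LacZ RNAi cells were 11.3, 12.3, 12.1 and 12.7 in replicates 1 to 4. In M1BP RNAi cells they were 13.5, 13.8, 13.4 and 13.9. The groups did not overlap, and the lowest M1BP RNAi array lay 0.72 above the highest control array. The within-pair differences were 2.20, 1.50, 1.29 and 1.204, with a mean of 1.55 ± 0.45 (SD, n = 4 pairs), or 2.92-fold. The widest difference belonged to replicate 1, whose control culture had the lowest His4r level. Histone H4 is made from many gene copies with the same protein sequence, and whether the probes tell His4r from other H4 messages was not tested.

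The largest measured mean difference of all 15473 transcripts was that of FBtr0087610, in the class at 7 or above in control cells. Its log2 levels in LacZ RNAi cells were 7.64, 7.42, 6.50 and 7.69, and in M1BP RNAi cells 11.3, 11.6, 10.6 and 10.2. The mean difference was 3.61 ± 0.80 (SD, n = 4 pairs), or 12.2-fold. The groups were apart by 2.47 on the log2 scale, but its control level lay close to the dim range and in replicate 3 inside it.

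FBtr0100086 had the largest rise among the 15 transcripts with a control mean under 7. In LacZ RNAi cells it was at 6.73, 6.49, 6.82 and 7.07, and in M1BP RNAi cells at 9.10, 9.38, 10.3 and 11.2. The mean difference was 3.22 ± 0.75 (SD, n = 4 pairs). No detection calls were used, and values below 7 may be background, so its fold is given as a bound: taking 7 as the floor, the transcript was at least 8.01-fold higher. All 4 M1BP RNAi arrays were above every control array, and the gap between the groups was 2.03.

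**Figure D1:**
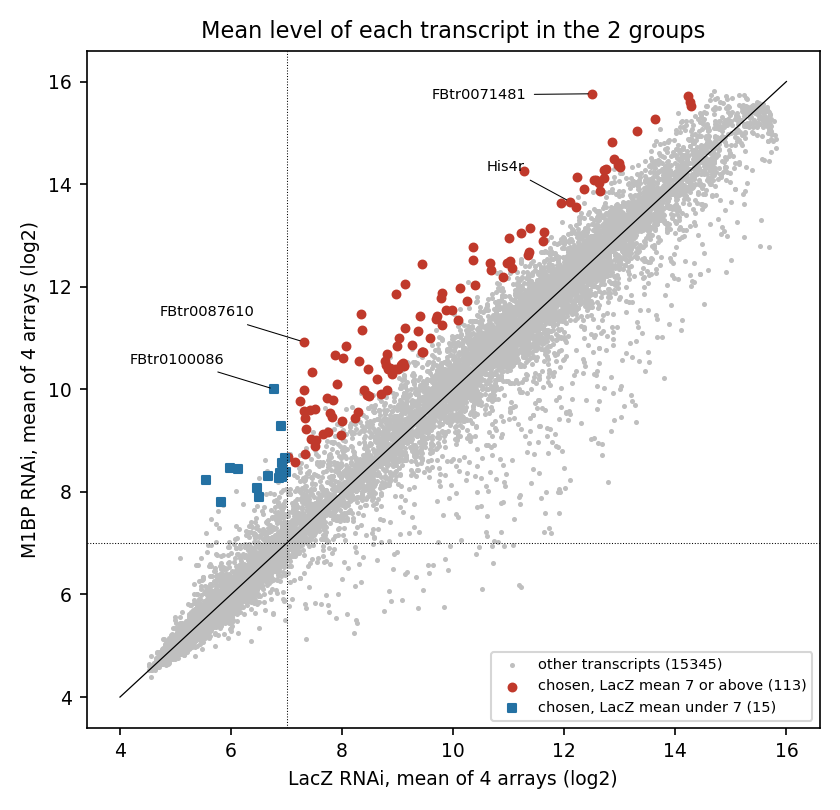
Mean log2 level of each transcript over the 4 LacZ RNAi arrays (x axis) and the 4 M1BP RNAi arrays (y axis), with the line of equal levels and dotted lines at 7. Grey points are other transcripts, red circles the 113 raised transcripts with a control mean of 7 or above, and blue squares the 15 with a control mean under 7, which reach at most 10.0 in M1BP RNAi cells.

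The 15 transcripts with a dim control level came from the 6985 whose LacZ RNAi mean was under 7, a share of 0.215%. In 194 transcripts the LacZ RNAi mean was under 7 and the M1BP RNAi mean at least 7, and these 15 are the ones that also rose by 1 or more in each pair. Their control means ran from 5.56 to 6.99, with a median of 6.78, and their M1BP RNAi means from 7.81 to 10.0, with a median of 8.37. The control arrays were all under 7 in 7 of the 15, and the M1BP RNAi arrays were all at 7 or above in 14. The groups did not overlap in 12 of the 15, where 7.74% of all transcripts were higher without overlap. The rule favours such a gap, so the count is a description. With 7 as the floor for the control level, the 15 were at least 1.75-fold to at least 8.01-fold higher, and 2 of them at least 4-fold. The measured differences, which include any background in the controls, had a median of 1.65 and were 2 or more in 5 of the 15.

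FBtr0079547 had the lowest control mean of the 15. Its LacZ RNAi levels were 5.21, 5.80, 5.56 and 5.67, and its M1BP RNAi levels 7.96, 8.62, 8.36 and 8.02. The difference was 2.68 ± 0.22 (SD, n = 4 pairs), and the bound with 7 as the floor was at least 2.36-fold. This transcript went from well inside the dim range to just above it, with little spread in either group.

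The 113 transcripts already at 7 or above in control cells covered a wide range of levels. Their control means ran from 7.03 to 14.3, with a median of 9.25, and their M1BP RNAi means from 8.57 to 15.8, with a median of 11.1. For comparison, the median control level was 11.2 over all 8488 transcripts with a LacZ RNAi mean of at least 7. Over the 324 transcripts that were lowered by the mirrored rule (LacZ RNAi mean at least 7, difference of -1 or lower in every pair) it was 11.7. By these rules the control is the lower group for rises and the higher group for falls, so the choice itself bears on this comparison. The median rise of the 113 was 1.59, or 3.02-fold, against a median difference of 0.004 over all transcripts. At least 1 control array was under 7 in 19 of the 113.

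Raised transcripts made up the largest share in the lower part of the expressed range. With a LacZ RNAi mean from 7 to 8 they were 25 of 790 transcripts (3.16%), and from 8 to 10 they were 45 of 1727 (2.61%). The shares were 0.681% of 3082 transcripts from 10 to 12, 1.18% of 1351 from 12 to 13, and 0.390% of 1538 at 13 or more. The size of the rise also differed by level. The largest mean rise was 3.61 from 7 to 8, 3.13 from 8 to 10 and 2.98 from 10 to 12. From 12 to 13 it was 3.26 as measured, and belonged to FBtr0071481, whose M1BP RNAi levels lay at the top of the scale. At 13 or more it was 1.73. These maxima came from 25, 45, 21, 16 and 6 raised transcripts, from the lowest of these level ranges to the highest. The median rises were closer together, at 1.88, 1.62, 1.63, 1.54 and 1.41 in the same order. The highest value of any array was 15.98, and whether the top of the scale limits rises at high control levels was not tested.

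FBtr0071481 reached the highest level of all the raised transcripts. Its LacZ RNAi levels were 9.87, 13.04, 12.998 and 14.1, and its M1BP RNAi levels 15.6, 15.9, 15.6 and 15.9. The control cultures had an SD of 1.83 and replicate 1 was the lowest of them, while the M1BP RNAi values had an SD of 0.16. All 4 M1BP RNAi values lay near the top values of the arrays, which were 15.86 to 15.98. Saturation was not measured, so neither its rise nor the narrow spread of its M1BP RNAi values can be sized. In all, 6 of the 128 had an M1BP RNAi mean of at least 15.

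A mean rise of at least 2 on the log2 scale (4-fold) was measured in 31 of the 128, of which 15 differed by 2 or more in each of the 4 pairs. Of the 31, 26 had a control mean of 7 or above. The other 5 are the dim ones above, 2 of which keep 4-fold with 7 as the floor. The mirrored falls included 180 of 324 with a mean difference of -2 or lower, and 118 with -2 or lower in every pair. The smallest mean rise among the 128 was 1.12, and the median was 1.61.

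The size of the rise differed somewhat by pair. The median difference of the 128 was 1.59 in pair 1, 1.57 in pair 2, 1.72 in pair 3 and 1.55 in pair 4. Pair 3 held the largest of the 4 differences in 54 of the 128. The smallest was in pair 1 for 42 and in pair 4 for 41. Over all 15473 transcripts these counts were 4176, 3909 and 3967 in the same order. A difference of at least 1 was most frequent in pair 3 over all transcripts too, at 4.67%, against 2.66% in pair 1, 2.68% in pair 2 and 3.38% in pair 4.

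**Figure D2:**
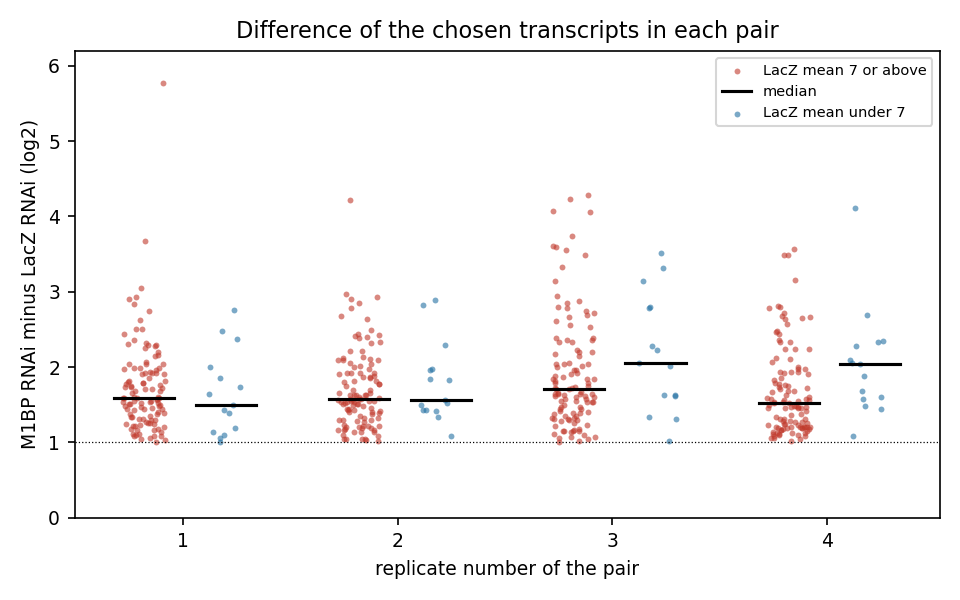
Log2 difference (M1BP RNAi minus LacZ RNAi) of the 128 raised transcripts in each replicate pair, 1 point per transcript and a black bar at the median. The dotted line at 1 is the minimum that chose them, and the medians of the 15 dim transcripts (blue) were 1.49 and 1.56 in pairs 1 and 2 and 2.06 and 2.04 in pairs 3 and 4. The highest point in pair 1 is FBtr0071481, whose M1BP RNAi level lay at the top of the scale.

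Pairs 3 and 4 were also set against pairs 1 and 2, a division taken from earlier work on these arrays. Of the 128, 38 (29.7%) had larger differences in both of pairs 3 and 4 than in either of pairs 1 and 2, and 21 (16.4%) had the opposite order. Over all transcripts these shares were 19.6% and 19.2%. Among the 15 dim transcripts the counts were 7 and 0. These orders come from the differences that chose the transcripts and are given as a description.

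The raised transcripts varied widely between cultures of the same group. The highest and lowest LacZ RNAi arrays differed by 1 or more on the log2 scale in 58 of the 113 expressed ones (51.3%). The same range was found in 20.1% of all transcripts with a control mean of at least 7 and in 21.6% of the mirrored falls. Over the 4 M1BP RNAi arrays a range of 1 or more was found in 49.6% of the 113. It was found in 17.7% of all with a control mean of at least 7 and in 43.8% of the mirrored falls. These sets were not matched for level, with median control levels of 9.25, 11.2 and 11.7 in the same order. The median SD over the 4 control arrays was 0.48 for the 113, 0.28 for all with a mean of at least 7, and 0.29 for the mirrored falls. For the dim raised transcripts the median control SD was 0.25, against 0.18 for all with a control mean under 7. A control range of 1 or more was found in 4 of the 15 (26.7%), against 5.55% of all such transcripts. The values of both groups entered the choice through the pair differences, so these shares carry no test. Replicate 4 was the highest control array in 60 of the 113 and replicate 1 the lowest in 49. Over all transcripts with a control mean of at least 7, replicate 4 was the highest in 29.4% and replicate 1 the lowest in 24.1%.

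**Figure D3:**
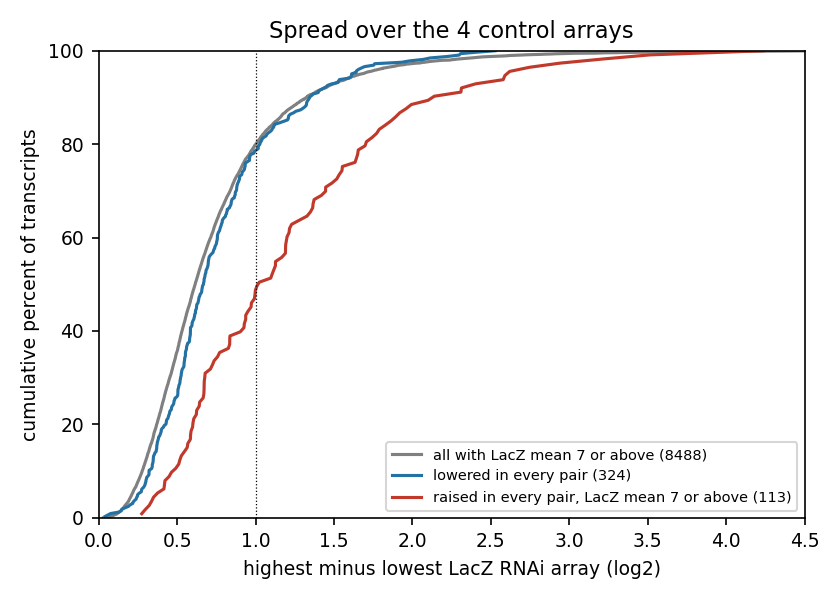
Cumulative percentage of transcripts (y axis) by the log2 gap between the highest and the lowest of the 4 LacZ RNAi arrays (x axis). The curve of the 113 raised transcripts with a control mean of 7 or above lies to the right, with 51.3% at 1 or more (dotted line), against 21.6% of the 324 lowered transcripts and 20.1% of all 8488.

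The SD of the 4 pair differences was smaller than the SD of the 4 control arrays in 87 of the 113 expressed raised transcripts (77.0%), against 62.6% of all transcripts with a control mean of at least 7. Among the 15 dim ones this held in 7 (46.7%), against 41.1% of all with a control mean under 7. The rule asked for a difference of at least 1 in each same-numbered pair, which favours even differences, so these shares are a description only. FBtr0072484 was the most even: its LacZ RNAi levels were 10.6, 10.6, 11.2 and 11.2, and its M1BP RNAi levels 11.9, 11.9, 12.5 and 12.6. Its level was higher in replicates 3 and 4 than in replicates 1 and 2 in both groups. Its pair differences stayed between 1.299 and 1.308.

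FBtr0073531 varied more widely between replicates, again in both groups. It was at 6.80, 7.16, 8.36 and 9.74 in LacZ RNAi cells and at 8.39, 9.84, 11.9 and 12.4 in M1BP RNAi cells. Its groups overlapped, since replicate 1 of the M1BP RNAi cells was below replicate 4 of the controls, yet each pair differed by 1.59 or more. It was 1 of 9 raised transcripts (7.03%) in which both LacZ RNAi arrays 3 and 4 exceeded both arrays 1 and 2 by at least 1, and 5 (3.91%) had the reverse. Over all transcripts these shares were 0.659% and 0.763%.

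**Figure D4:**
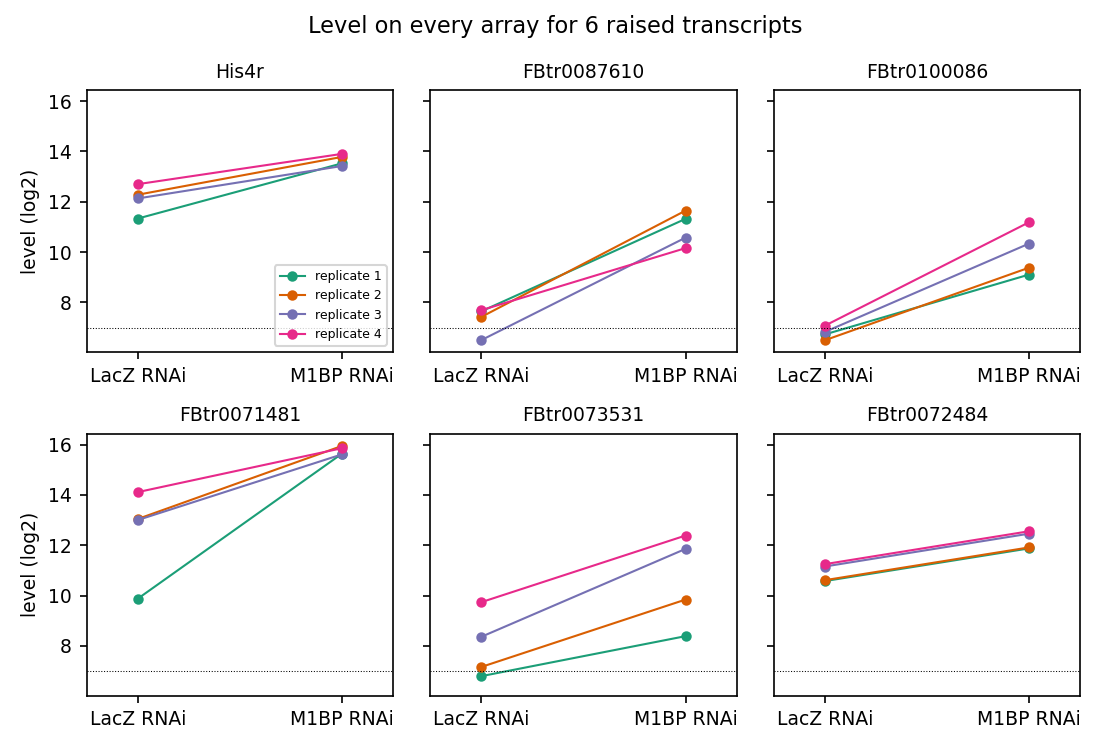
Log2 level on every array for His4r and 5 unnamed raised transcripts, with a line joining the LacZ RNAi and M1BP RNAi arrays of each replicate number and a dotted line at 7. All 24 lines rise; the groups overlap in FBtr0073531 and in none of the other 5, and the 4 M1BP RNAi values of FBtr0071481 lie between 15.6 and 15.9.

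In 102 of the 128, every M1BP RNAi array was above every LacZ RNAi array, and in 26 the groups overlapped. Over all transcripts 7.74% were higher without overlap. A fit of all 15473 transcripts without the replicate number (limma, Benjamini-Hochberg adjusted p under 0.05) called 105 of the 128 higher, 13 of the 15 dim and 92 of the 113 expressed ones, where it called 4.24% of all transcripts higher. With the replicate number as a block (the paired fit) all 128 were called, where 12.5% of all transcripts were called higher. The transcripts were chosen on this same contrast, so neither count is evidence for them. The 23 not called without the block had a median control SD of 0.96, against 0.38 in the 105, while their median differences were 1.63 and 1.59, and the groups overlapped in 22 of the 23. In the other direction, the unblocked fit called 243 transcripts with a mean rise of at least 1, of which 105 were among the 128. The remaining 138 had a pair under 1 in 137 cases.

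Wider sets, chosen in some of the pairs only, were also read in the other pairs. For the 128 themselves all 4 pairs entered the choice, so no array was held out. With the level and difference minimums applied to pairs 3 and 4 alone, 354 transcripts were chosen. In pairs 1 and 2, 115 of them (32.5%) were called higher (limma on those 4 arrays, adjusted over all transcripts), where 1.6% of all transcripts were called higher. The share was 2.83% among the 8523 transcripts with an M1BP RNAi mean of at least 7 in pairs 3 and 4. That fit leaves out the pairing. With the replicate number as a block, 304 of the 354 (85.9%) were called, where 10.3% of all transcripts and 17.5% of the 8523 were called higher. On 4 arrays a blocked fit leans on variance pooled over all transcripts, so counts from it are a description. The mean difference in pairs 1 and 2 was above 0 in 342 of the 354. It had a median of 0.99, down from 1.48 in the pairs that chose them. In both pairs 1 and 2 the difference was at least 1 for 128 (36.2%), which are the raised transcripts described above, against 1.47% of all transcripts.

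The reverse choice gave 225 transcripts from pairs 1 and 2. In pairs 3 and 4, 171 of them (76.0%) were called higher (limma, adjusted over all transcripts), where 4.95% of all transcripts were called higher, and 7.93% of the 8529 at the level minimum. With the block 208 (92.4%) were called, where 9.85% of all transcripts and 15.5% of the 8529 were called higher. The mean difference was above 0 in 224 of the 225, with a median of 1.30 against 1.43 in the pairs that chose them. A difference of at least 1 in both pairs 3 and 4 was found in 128 (56.9%), against 2.33% of all transcripts. These are the same 128 as in the first choice, since passing all 4 pairs is their rule. Both shares are therefore a description. Of those chosen with a control mean under 7 in the choosing pairs, the unblocked fit called 16 of 75 in pairs 1 and 2. It called 22 of 27 in pairs 3 and 4. Over all transcripts it called 1.6% and 4.95%. The share among all transcripts with a dim control level was not computed, so these counts are a description.

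**Figure D5:**
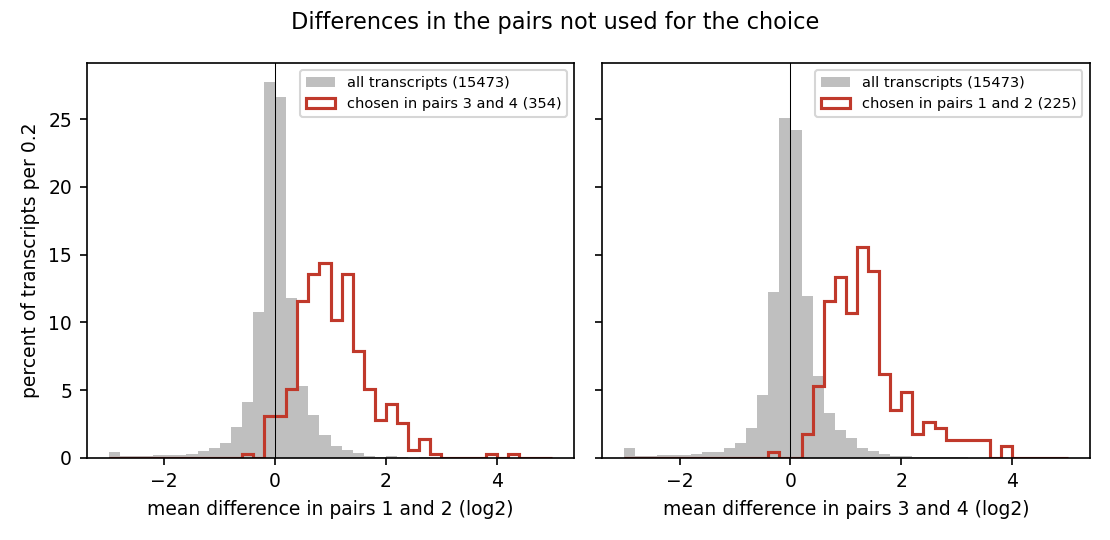
Distribution of the mean log2 difference in pairs that had no part in the choice, as percent of transcripts per 0.2 (values beyond -3 or 5 are drawn at the edge). Grey bars are all 15473 transcripts, centred near 0, and red outlines are the 354 transcripts chosen in pairs 3 and 4, with a median of 0.99 in pairs 1 and 2 (left), and the 225 chosen in pairs 1 and 2, with a median of 1.30 in pairs 3 and 4 (right).

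When 3 pairs chose and the remaining pair was read, most transcripts again differed by at least 1. For pair 1 this held in 128 of 180 (71.1%), for pair 2 in 128 of 162 (79.0%), for pair 3 in 128 of 142 (90.1%) and for pair 4 in 128 of 169 (75.7%). The 128 are the same transcripts each time, since passing all 4 pairs is the rule itself, so only the number chosen varies. Over all transcripts, without the level minimum, the shares were the 2.66%, 2.68%, 4.67% and 3.38% given above. All of these shares are a description. Only FBtr0088448 was below 0 in pair 1, at -0.12, and only FBtr0082527 in pair 2, at -0.05. The lowest value was 0.36 in pair 3 and 0.19 in pair 4.

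Many transcripts lay close to the minimum of 1. The smallest pair difference was under 1.1 in 29 of the 128, and 51 further transcripts at the level minimum had a smallest difference from 0.9 to 1. The closest raised transcript had a smallest difference of 1.001 and the closest one left out 0.999. The level minimum mattered little: 1 transcript met the difference rule with an M1BP RNAi mean under 7, FBtr0078924, which differed by 1.62 and reached a level between 6.55 and 6.83.

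Some raised transcripts had consecutive FlyBase numbers. There were 4 such runs, holding 13 of the 128, and counting each run once left 119. Whether the transcripts of a run come from 1 gene is not recorded in the sources used here. All transcripts of a run met the rule, so their shared direction is a description. In the run FBtr0087866 to FBtr0087868 the mean differences were 1.41, 1.28 and 1.42, from control means of 9.06, 9.44 and 9.57. The 4 transcripts FBtr0089922 to FBtr0089925 differed by 1.56, 1.41, 1.18 and 1.54, and the third of them had a control mean of 8.81 while the others were at 12.5 to 12.7. FBtr0089921, just before this run, had a mean rise of 1.48 but did not meet the rule. The raised FBtr0089920, with 1.59, came before it and was counted apart from the run in the 119. FBtr0073575 to FBtr0073578 differed by 1.33, 2.03, 1.41 and 1.41, where the second had a control mean of 9.40 and the others 12.97 to 13.005. The last run was the pair FBtr0087454 and FBtr0087455, with differences of 1.91 and 1.65 from control means of 12.2 and 7.03. Within 3 of the 4 runs, control levels lay more than 3 apart on the log2 scale.

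Other neighbours of raised transcripts differed little at the median. Of 185 transcripts that sat 1 number away and were not among the 128, 119 had an M1BP RNAi mean of at least 7. Their median difference was 0.12, with 69 above 0 and 50 below, and 12 differed by a mean of 1 or more. In the unblocked fit 13 of these 119 (10.9%) were called higher (limma, adjusted p under 0.05), where 7.47% of all transcripts at the same level minimum and 4.24% of all transcripts were called.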

How the data were processed

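The deposited table gives a log2 value for each FlyBase transcript on each array. The authors made these values with RMA, per the submitters' processing notes, a method that removes background, equalizes the arrays and combines a transcript's probes. Array medians were 7.91 to 8.01. A shift shared by most transcripts is therefore not visible. Precision rests on 4 arrays per group. The sources used here name no build, annotation release or detection calls.

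The values were used as deposited. Fits used limma 3.58.1 in R 4.3.3 (lmFit, eBayes, two-sided, Benjamini-Hochberg over all 15473 transcripts), with group as the only term or, where stated, with the replicate number as a block. The fit without the block was tested on simulated data with independent noise on each array. That simulation left out the correlation of same-numbered arrays given below, and the fit with the block was not simulated. Gene names came from synonyms listed in a RefSeq Release 6 gene table (17872 genes). SD is over arrays or pairs. After subtracting group means, arrays sharing a number correlated at r = 0.66, 0.66, 0.48 and 0.67, all over 0.1, so numbers were taken as pairs. The transcripts, lists and tests were chosen with earlier results of these data known. The naming rule was every raised transcript tied to a gene and, with fewer than 5 of these, the largest mean rise in each level class. Gene lists and promoter sequences could not be used for untied identifiers.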

Additional observations from a re-analysis of the deposited data

Results flagged for a closer look

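No result met the criteria for a closer look: for His4r, FBtr0087610 and FBtr0100086 no array lay far from the other 3 of its group by Dixon's criterion. Over all 128 raised transcripts, 6 of 256 groups of 4 arrays had such an array (2.34%), where chance gives about 1 in 20 and all transcripts gave 5.02%.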

How the results depend on the processing

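The number of raised transcripts rested on the minimum difference and on the pairing. A minimum of 0.8 gave 237 (26 with a control mean under 7, median rise 1.40), and 1.2 gave 70 (8, median 1.93). Without pairing, the lowest M1BP RNAi array had to exceed the highest LacZ RNAi array by 1, which left 38 (9, median 2.18). Leaving out 1 replicate pair gave 142 to 180 transcripts, 15 to 29 of them under 7 in control cells, with medians of 1.53 to 1.57. The 29 came without replicate 1, and fewer pairs make the rule easier to meet. Other minimums of level, median centring and a second quantile normalization gave 125 to 129. Transcripts called higher numbered 1937 with the replicate block, 242 at an adjusted p under 0.01, and 374 to 611 without 1 array. It was 378 when LacZ RNAi replicate 3 was left out, and 422, 374 and 410 when M1BP RNAi replicate 2, 3 or 4 was. Of the 128, 76 to 128 were called in these settings. Of the 354 transcripts chosen in pairs 3 and 4, 304 were called in pairs 1 and 2 with the replicate block, where 10.3% of all transcripts were. The remaining counts stayed within 1.5 times the values reported, and the rises of His4r, FBtr0087610 and FBtr0100086 moved by less than their SD over pairs. The cause of each move was not tested. Dim levels, under 7, may be background.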
